A study of Mus musculus with 359 samples.

Results

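All 60 lung libraries of the gavage experiment, out of 359 libraries in the series, were compared by the position of their number. Each library carries a number in its name, and the numbers were divided into blocks of 8, so that each library has a place from 1 to 8 within its block. The 23 libraries at places 1-3 were set against the 22 at places 6-8, and the 15 at places 4-5 formed a middle class. The labels do not state what the number stands for, so whether places follow the order or the hour of collection was not tested. Places were set by the number alone and used no expression value, but the comparison was chosen with earlier results of these data known.

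The study gave 4-methylimidazole (4-MEI), a nitrogen heterocycle formed when foods are browned, to B6C3F1 hybrid mice and sequenced RNA of liver and lung. The lungs described here came from mice dosed by gavage for 2 days with vehicle alone (0 mg/kg-d) or with 50, 100, 200 or 300 mg/kg-d of 4-MEI. Each of the 10 groups, a dose in mice with the suffix M or F, held 6 libraries and filled 1 block of numbers, so each block held 1 dose and 1 suffix. Places were therefore compared within groups, and the dose rises with the block number, so that the dose and the order of the blocks cannot be told apart. Liver of the same gavage experiment and lungs of mice fed 4-MEI for 5 or 28 days were used for comparison. The labels do not give the age of the mice, the hour of death or the hour of the last dose.

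The mammalian circadian clock is a feedback loop of transcription. ARNTL (also called BMAL1) pairs with CLOCK or its relative NPAS2, binds E-box sequences and switches on the Per, Cry, Nr1d and Dbp genes, whose PER and CRY proteins later shut the pair off. The NR1D proteins (REV-ERBs) repress and the ROR receptors activate Arntl, Npas2 and Nfil3, so that in tissues including lung the Arntl transcript peaks when those of Nr1d1 and Dbp are low.

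The promoters below show matches to short patterns for elements of this loop, in genes whose values are given later. They run from 250 bases before to 50 bases after the start of 1 RefSeq transcript (GRCm38.p6), 5′ to 3′ on the gene's strand, and capitals mark a motif. For Arntl (chr7:113207215-113207514, plus strand) and Nfil3 (chr13:52980990-52981289, minus strand) the capitals are matches to TNGGTCA, searched on both strands. N is any base, so this pattern is looser than the core of the ROR response element, and a match need not be such an element. For Ciart (chr3:95882179-95882478, minus strand) and Cry1 (chr10:85185005-85185304, minus strand) they are the E-box CACGTG, which reads the same on both strands.
Arntl: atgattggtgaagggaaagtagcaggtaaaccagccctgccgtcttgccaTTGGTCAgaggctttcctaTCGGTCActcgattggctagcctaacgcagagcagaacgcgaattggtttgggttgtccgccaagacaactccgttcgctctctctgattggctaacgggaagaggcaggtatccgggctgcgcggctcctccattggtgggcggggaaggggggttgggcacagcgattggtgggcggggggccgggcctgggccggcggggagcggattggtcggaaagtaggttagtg
Nfil3: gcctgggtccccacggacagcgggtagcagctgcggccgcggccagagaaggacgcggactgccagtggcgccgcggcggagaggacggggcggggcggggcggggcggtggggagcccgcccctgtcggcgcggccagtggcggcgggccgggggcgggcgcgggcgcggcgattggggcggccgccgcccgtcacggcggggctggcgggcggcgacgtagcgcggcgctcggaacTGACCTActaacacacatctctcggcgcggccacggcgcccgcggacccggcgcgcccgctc
Ciart: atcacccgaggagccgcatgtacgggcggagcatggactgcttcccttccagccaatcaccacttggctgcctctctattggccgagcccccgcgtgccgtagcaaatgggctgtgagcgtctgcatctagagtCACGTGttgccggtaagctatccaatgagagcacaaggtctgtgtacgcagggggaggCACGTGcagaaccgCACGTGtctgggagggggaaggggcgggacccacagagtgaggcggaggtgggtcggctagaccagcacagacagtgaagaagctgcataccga
Cry1: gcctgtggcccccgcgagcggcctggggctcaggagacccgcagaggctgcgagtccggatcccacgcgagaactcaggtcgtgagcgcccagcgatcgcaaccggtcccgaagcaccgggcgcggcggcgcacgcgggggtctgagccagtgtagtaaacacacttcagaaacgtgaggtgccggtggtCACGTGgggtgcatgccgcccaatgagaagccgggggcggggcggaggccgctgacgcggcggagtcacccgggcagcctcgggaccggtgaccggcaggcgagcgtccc

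For Arntl and Nfil3 this start lies inside the annotated gene, which begins further upstream. The Arntl window held TNGGTCA at 2 sites, starting 200 and 181 bases before the start, with T and C at the N. The Nfil3 window held it at 1 site, 12 bases before, on the other strand with A at the N. A second, overlapping Arntl window (chr7:113207261-113207560) held it at 3 sites. The Ciart window held 3 E-boxes, the 2 nearest at 58 and 44 bases before the start, and the Cry1 window held 1, 60 bases before. Among all 32851 RefSeq windows of 300 bases, 11% held TNGGTCA and 7.15% the E-box. Of 22 clock genes with a window, 5 held TNGGTCA (Arntl, Cry2, Nfil3, Per3 and Tef) and 5 the E-box (Bhlhe41, Ciart, Cry1, Per1 and Tef). The D-box TTATGNAA, bound by DBP and NFIL3, was found in 3 (Per1, Per3 and Timeless) and in 3.38% of all windows. A clock gene was counted if any of its windows held the motif, whereas the shares of all windows count each window singly. The clock counts and these shares are therefore in unlike units. These matches describe the letters of the windows and say nothing about binding in these lungs.

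Lung identity was checked first. The surfactant gene Sftpc ran from 12520 to 44250 CPM (TMM-scaled counts relative to library size), the club cell gene Scgb1a1 from 21980 to 107800, and the alveolar type 1 gene Ager from 1902 to 5297. Library totals ran from 7253910 to 18790180 counts at places 1-3 (median 15880404) and from 12927500 to 20232366 at places 6-8 (median 15416925). Among the libraries, 5 had stood apart in an earlier look at these data. Number 12 (vehicle, F, place 4) held 258 CPM of the liver gene Alb, and number 66 (300 mg/kg-d, M, place 2) held 38860 CPM of the ribosomal RNA precursor Rn45s, 107800 CPM of Scgb1a1 and the lowest Cdh5, an endothelial gene, at 457 CPM. Number 75 (300 mg/kg-d, F, place 3) held 315 CPM summed over 10 skeletal muscle genes, where the median at places 1-3 was 44.4. Number 64 (200 mg/kg-d, F, place 8) held 1037 CPM summed over 10 neutrophil genes and 8092 over 16 glucocorticoid-responsive genes, where the medians at places 6-8 were 72.2 and 1996. Number 78 (300 mg/kg-d, labelled F, place 6) went against its label, since its Xist, the transcript of the silenced X chromosome, was at 0.631 CPM, where the other 29 F libraries ran from 424 to 736 and the 30 M libraries from 0 to 0.5. It was kept. For the place comparison (all libraries, F, F minus M) and the F dose comparison without a place term, counts without it are given. Other counts include it unless stated.

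Of 15240 genes tested, 704 (4.62%) passed an adjusted p of 0.05 between places 6-8 and 1-3, with 303 (1.99%) higher and 401 (2.63%) lower at places 6-8. Fold changes are log2 values of edgeR's quasi-likelihood fit with a term for each dose and suffix group, and adjusted p-values are Benjamini-Hochberg values over all genes tested. The median fold change of all tested genes was -0.004. Of 28 clock genes tested, 13 passed. Among them, the Arntl partners Npas2 and Clock, Arntl itself, Cry1, Cry2, Per2 and Nfil3 were higher at places 6-8, and Nr1d1, Nr1d2, Dbp, Ciart and Bhlhe41 were lower. Without the 5 libraries that stood apart, 1046 genes passed, 418 higher and 628 lower, and without number 78 alone 673 passed. The labels do not say that libraries of a group came from separate mice, so p-values measure the spread between these libraries.

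Arntl (chr7:113178471-113314126), which encodes the core activator, ran from 3.18 to 12 CPM with a median of 6.61 at places 1-3, from 2.43 to 13.1 (median 8.20) at places 4-5, and from 3.03 to 36.6 (median 11.3) at places 6-8. The ranges overlapped, and 16 of the 22 late libraries lay above the early median. The fold change was 1.07 (SE 0.16, adjusted p = 2.1e-05). By place, the medians were 6.67, 6.66 and 6.60 CPM at places 1, 2 and 3, 7.23 and 8.20 at 4 and 5, and 12.3, 8.59 and 16.1 at 6, 7 and 8. By these medians Arntl was level over the early places and highest at place 8. They pool all doses, and the mix of doses differs between places. Place 8 held numbers 64 (200 mg/kg-d, F) and 72 (300 mg/kg-d, M), at 36.6 and 36.4 CPM. Whether the dose mix shapes the medians was not tested.

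Npas2, the relative of Clock, ran from 0.541 to 3.98 CPM (median 1.69) at places 1-3 and from 1.77 to 12.7 (median 4.24) at places 6-8. All 22 late libraries lay above the early median, and in all 10 groups the late mean exceeded the early mean. Its fold change of 1.47 (SE 0.17, adjusted p = 3.57e-08) was the highest of the clock genes tested. Clock was higher by 0.24 (SE 0.07, adjusted p = 0.022), from a median of 94.9 to 109.4 CPM, and this call was lost in 9 of 64 alternative fits.

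The repressor genes of the loop did not move as a block. Cry1 ran from 18.2 to 48 CPM (median 32.6) at places 1-3 and from 33.8 to 77.9 (median 43.8) at places 6-8, a fold change of 0.66 (SE 0.07, adjusted p = 2.26e-09). Per2 ran from 56.2 to 140 CPM (median 98.4) and from 101.9 to 177 (median 134.5), a fold change of 0.45 (SE 0.07, adjusted p = 8.02e-06). For both genes all 22 late libraries exceeded the early median. Cry2 differed by 0.18 (adjusted p = 0.05 after rounding, inside the threshold), and its call was lost in 45 of 64 alternative fits. Per1 (0.11, adjusted p = 0.667) and Per3 (-0.14, adjusted p = 0.358) did not pass. Ciart, another repressor of the ARNTL pair and the carrier of 3 E-boxes above, was lower by -0.45 (SE 0.10, adjusted p = 0.00426), with medians of 6.63 and 5.27 CPM.

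The REV-ERB gene Nr1d1 (chr11:98767932-98775377) showed the largest fall. It ran from 50.8 to 390 CPM (median 138.9) at places 1-3, from 26.1 to 305 (median 96.7) at places 4-5, and from 10.2 to 182 (median 53.4) at places 6-8. The late mean was below the early mean in 10 of 10 groups, and the fold change was -1.81 (SE 0.19, adjusted p = 2.57e-09). Its relative Nr1d2 fell less, by 0.58 on the log2 scale (SE 0.10, adjusted p = 8.6e-05), from a median of 161 to 113.6 CPM. The ROR genes Rora (0.16, adjusted p = 0.115) and Rorb (-0.06, adjusted p = 0.901) did not pass.

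Dbp (chr7:45705100-45710203), an output factor that binds D-boxes, ran from 52.8 to 234 CPM (median 109.1) at places 1-3 and from 9.46 to 161 (median 49.7) at places 6-8. Of the 22 late libraries, 18 lay below the early median, and the fold change was -1.45 (SE 0.19, adjusted p = 1.1e-06). Nfil3, which encodes the repressor of the same D-boxes, went the other way, from a median of 5.70 to 9.18 CPM (0.86, SE 0.14, adjusted p = 3.59e-05). The other PAR bZIP factors Tef (-0.02, adjusted p = 0.882) and Hlf (-0.16, adjusted p = 0.177) did not pass. Bhlhe41, a DEC repressor, was lower by -0.50 (SE 0.07, adjusted p = 7.97e-06), while its relative Bhlhe40 (-0.17, adjusted p = 0.0756) did not pass. Of 8 kinases and ubiquitin ligases that act on clock proteins, among them Csnk1d and Csnk1e, 0 passed in edgeR or DESeq2 and 1 had an unadjusted p under 0.05, with fold changes from -0.08 to 0.09.

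**Figure D1:**
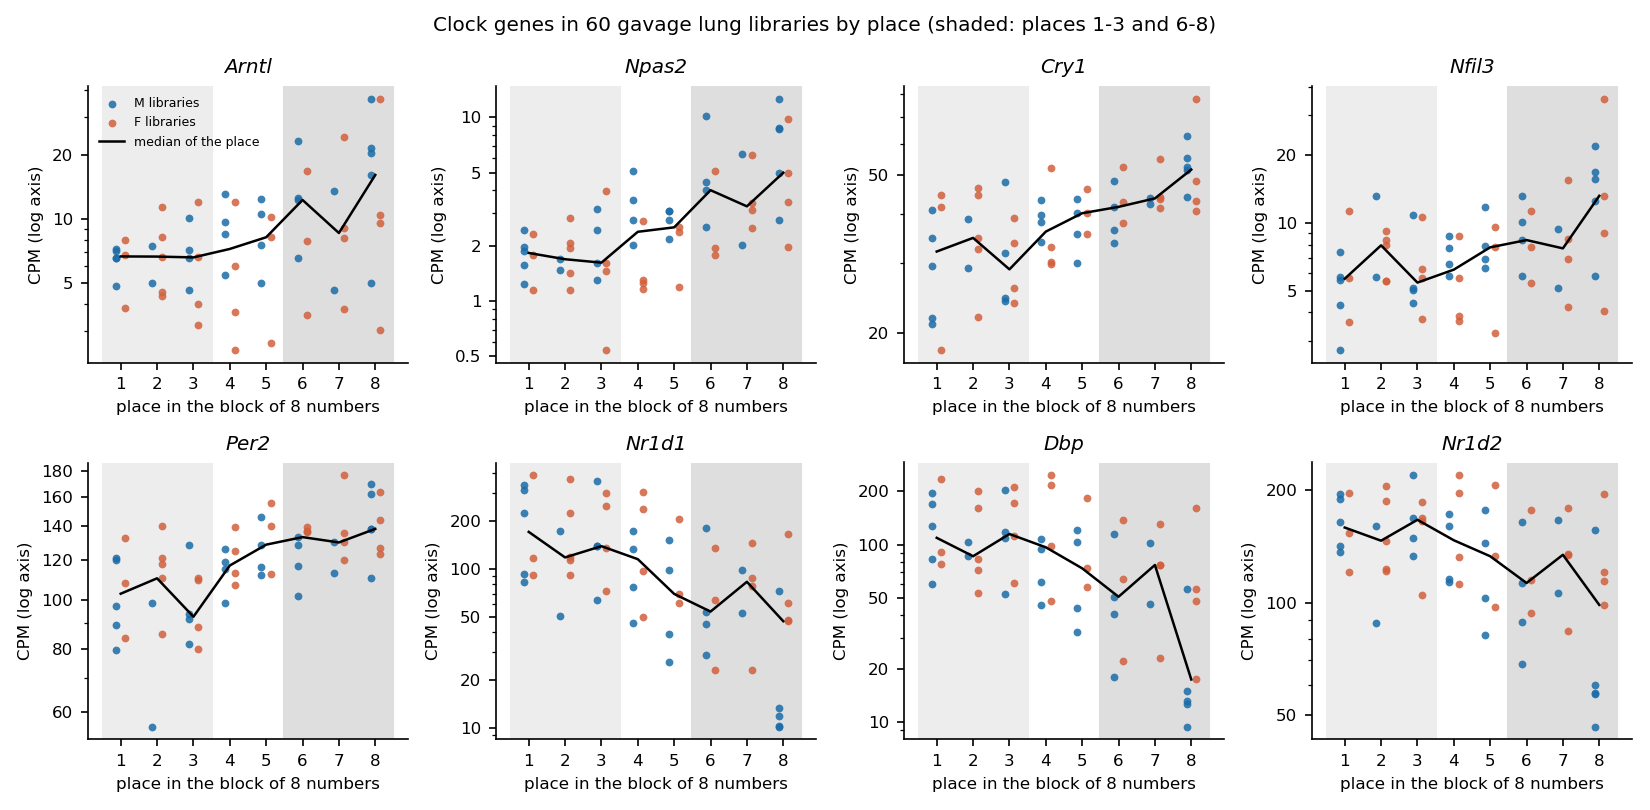
Normalised expression (CPM, log axis) of 8 clock genes against the place of the library's number in its block of 8, 1 point per library (blue M, orange F), with the median of each place as a line. Arntl, Npas2, Cry1, Nfil3 and Per2 are higher and Nr1d1, Dbp and Nr1d2 lower at places 6-8 (dark shading) than at places 1-3 (light shading), with overlapping ranges.

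Between the middle places 4-5 and the mean of both ends, 0 genes (0%) passed in edgeR, 1135 reached an unadjusted p of 0.05, and the DESeq2 count was 4. In the comparison of places 6-8 with 1-3, 10 of the 13 clock calls held in all 64 alternative fits, and those of Clock, Cry2 and Ciart were lost in at least 1.

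The place effect was then taken within M and within F libraries. In M libraries 81 genes (0.531%) passed, among them 10 of 28 clock genes, and in F libraries 69 genes were higher and 65 lower (0.879%), among them 9 clock genes (57 higher and 58 lower genes without number 78). Nr1d1 had a fold change of -2.09 in M and -1.54 in F, Dbp of -1.73 and -1.17, Arntl of 1.21 and 0.93, and Npas2 of 1.67 and 1.27. In the test of the F minus M difference 0 genes (0%) passed in edgeR, 948 reached an unadjusted p of 0.05, and the DESeq2 count was 0. Without number 78 the count was 0 as well. For Arntl the difference was -0.28 (SE 0.33, adjusted p = 0.953). Each named clock gene that passed in all libraries had the same sign in M and in F.

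**Figure D2:**
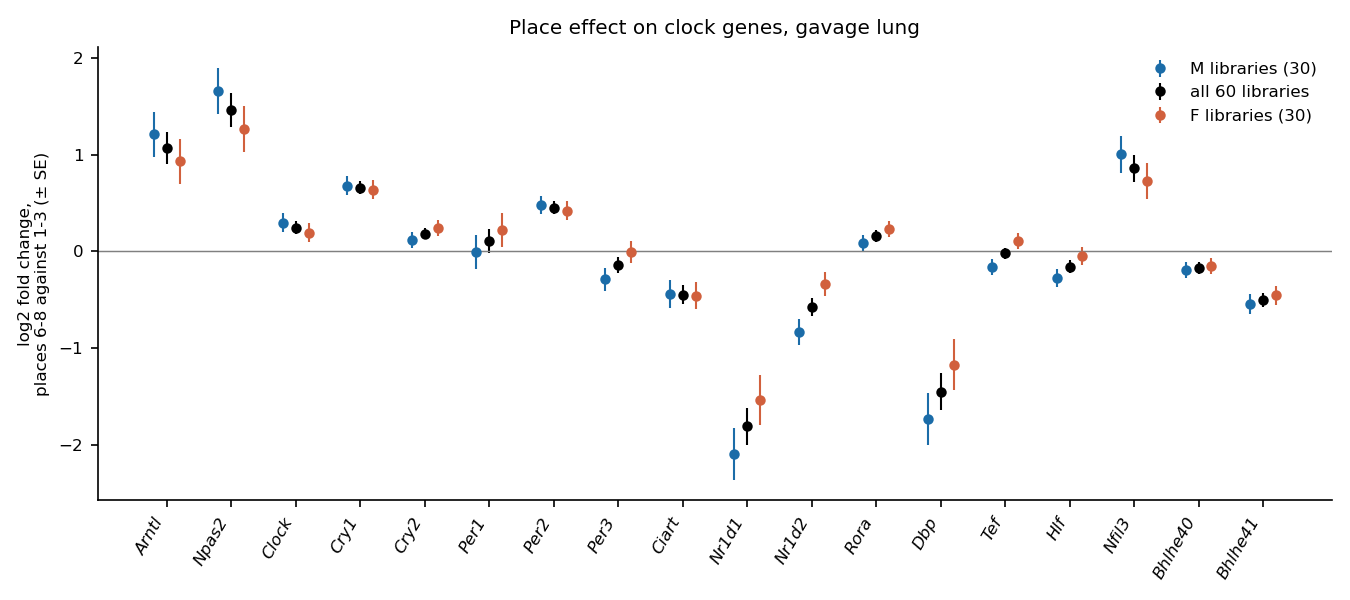
Log2 fold change ± SE between places 6-8 and 1-3 for 18 clock genes, in M libraries (blue), F libraries (orange) and all 60 libraries (black). Nr1d1 and Dbp lie lowest, Npas2 and Arntl highest, and M and F lie on the same side of 0 for each gene shown that passed in all libraries.

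Vehicle lungs, with no 4-MEI, showed part of the pattern. With 4 vehicle libraries at each end, 10 genes (0.0656%) passed, Cry1 and Per2 among them. Cry1 read 21.1, 24.5, 18.2 and 21.99 CPM early and 36.3, 44.0, 43.7 and 48.3 late (1.01, SE 0.15, adjusted p = 0.000237), without overlap. Per2 read 89.1, 91.5, 84.2 and 85.5 CPM early and 133.1, 137.9, 177 and 164 late (0.80, SE 0.14, adjusted p = 0.00476).

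Arntl, in contrast, read 6.55, 4.67, 3.85 and 4.54 CPM in the early and 6.53, 5.01, 3.78 and 3.03 in the late vehicle libraries. The fold change was -0.13 (SE 0.37, adjusted p = 1), and the 2 sets overlapped. Nr1d1 read 341, 359, 390 and 368 CPM early and between 72.6 and 182 late, without overlap, and its fold change of -1.38 (SE 0.43) did not pass the adjustment over all genes (adjusted p = 0.46). Dbp read 169, 203, 234 and 200 CPM early and 114.3, 56.4, 130.1 and 161 late (-0.86, SE 0.41, adjusted p = 0.944). Outside the clock, the genes that passed in vehicle lungs were Lonrf3 (0.82), Lonrf1 (0.55), Slc46a3 (0.46), Morn3 (0.95) and Phf19 (0.86), which were higher, and Cxcl15 (-0.79) and St6galnac3 (-0.95), which were lower. Removing single vehicle libraries left 3 to 12 calls. The count was 5 without number 01 or 08, 3 without 09, 10 or 15, and 4 without 16.

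Across doses the size of the place effect was tested between the 2 higher doses and the rest. Between the 200 and 300 mg/kg-d groups and the lower doses with vehicle, 3 genes (0.0197%) differed in their place effect, and no clock gene was among them. Mat2a, which makes the methyl donor S-adenosylmethionine, differed by 0.64 (SE 0.10, adjusted p = 0.0013), the noncoding RNA Dnm3os by 1.27 (adjusted p = 0.0222) and Pid1 by -0.41 (adjusted p = 0.0339). Groups at 200 and 300 mg/kg-d held only 1 or 2 libraries each at places 6-8. Late Dnm3os had a median of 3.28 CPM and a highest value of 9.17. The highest late Pid1 value, 95.4 CPM against a late median of 59.6, was that of vehicle library 08. The Arntl fold change was 1.60 (SE 0.24) at 200 and 300 mg/kg-d and 0.70 (SE 0.21) below, a difference of 0.90 (SE 0.32, adjusted p = 0.232). DESeq2 called 53 genes in this test.

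The levels at each end also ran with the dose and the block number. At places 1-3, mean Nr1d1 was 350 and 379 CPM in the M and F vehicle groups, 200 and 264 at 50, 228 and 182 at 100, 116.5 and 94.1 at 200, and 66.2 and 114.6 at 300 mg/kg-d. At places 6-8 it was 127.2 CPM in the M vehicle group and 10.2 and 23.1 at 300 mg/kg-d. Dbp went from 186 and 217 CPM early in the vehicle groups to 66.2 and 81.1 at 300 mg/kg-d, and from 85.3 and 145 late to 9.46 and 22.6. Within each of the 10 groups both genes were lower at the late end.

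Arntl showed this order mainly at the late end, from 5.77 and 3.40 CPM in the vehicle groups to 16.04 and 7.36 at 50, 15.8 and 8.85 at 100, 14.2 and 36.6 at 200, and 36.4 and 20.4 at 300 mg/kg-d. Early Arntl stayed between 3.77 and 8.67 CPM in all 10 groups. The late values of the F group at 200 and of the M group at 300 mg/kg-d came from 1 library each, numbers 64 and 72. Over all 64 alternative fits, which left out each of the 45 libraries at places 1-3 and 6-8 in turn but none singly at places 4-5, the Arntl fold change lay between 0.87 and 1.18.

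**Figure D3:**
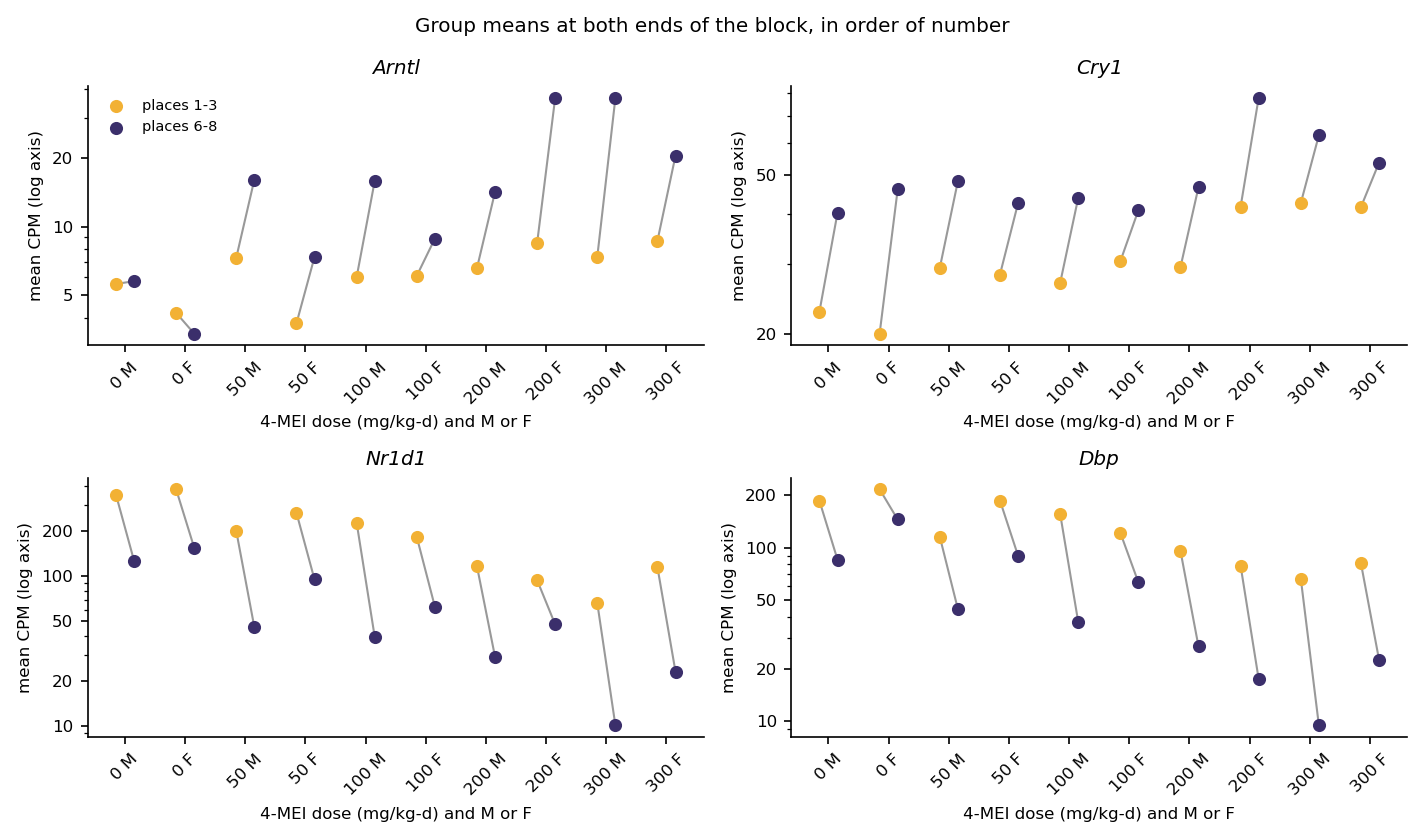
Mean CPM (log axis) at places 1-3 (yellow) and 6-8 (purple) of Arntl, Cry1, Nr1d1 and Dbp in the 10 dose and suffix groups, in the order of their numbers, with 1 to 3 libraries behind each point. Nr1d1 and Dbp are lower late than early in all 10 groups, and the early Nr1d1 mean of the M groups is 350 CPM with vehicle and 66.2 at 300 mg/kg-d.

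Whether place changes the dose comparison was measured by adding it as a term. For 300 mg/kg-d against vehicle, 32 genes (0.21%) passed in M libraries without the term and 0.669% with it, 50 higher and 52 lower. All 32 were among them, that is 100% of the first list and 31.4% of the second. In F libraries the counts were 1330 (8.73%) and 1540 (10.1%), and 1310 genes were shared, 98.5% and 85.1% of the lists. Without number 78 the first of these counts was 998. Of the 28 clock genes, 0 in M (14 at an unadjusted p under 0.05) and 12 in F passed without the term in edgeR, and 10 and 15 with it. Nr1d1 at 300 mg/kg-d in M libraries had a fold change of -2.57 with the term (adjusted p = 9.84e-05) and of -2.19 without it (adjusted p = 0.084). With the term, Arntl at this dose was higher by 1.25 in M (adjusted p = 0.0434) and 1.88 in F (adjusted p = 0.000143), and Dbp was lower by -1.78 (adjusted p = 0.00779) and -2.06 (adjusted p = 0.000147).

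Beyond the clock, the genes with the largest rise at places 6-8 included targets of glucocorticoids, the adrenal hormones that themselves follow a daily rhythm. Of 16 glucocorticoid-responsive genes tested, 4 were higher and 1 lower (1.99% and 2.63% over all genes), with a median fold change of 0.36 against -0.004 for all genes, and 15 of the 16 were positive. Fkbp5, which encodes a chaperone that curbs the glucocorticoid receptor, ran from 18.1 to 160 CPM (median 35.7) at places 1-3 and from 30.5 to 737 (median 63.7) at places 6-8 (0.97, SE 0.24, adjusted p = 0.0107). Tsc22d3, the anti-inflammatory GILZ gene, went from a median of 295 to 449 CPM (0.58, SE 0.11, adjusted p = 0.0011), and 21 of 22 late libraries exceeded the early median. Zbtb16 (1.07, adjusted p = 0.0445, lost in 35 of 64 alternative fits) and Dusp1 (0.45, adjusted p = 0.0365, lost in 19) also passed, and Lcn2 was lower (-0.38, adjusted p = 0.00571). The highest Fkbp5 value was that of number 64. Without the 5 libraries that stood apart, 3 of the 16 were higher and 1 lower.

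Further genes with large rises were Hif3a (1.03, adjusted p = 0.00163), a hypoxia-inducible factor subunit, Mettl21e (1.00, adjusted p = 1.18e-05) and Fam107a (0.83, adjusted p = 0.00242). Lonrf3, listed among outputs common to many tissues, was one of the most certain, from 14.8 to 61.6 CPM (median 31.9) early and from 30.1 to 82.1 (median 45.5) late (0.71, SE 0.07, adjusted p = 2.26e-09). Of the 12 genes of that list 2 were higher, Lonrf3 and Tsc22d3, where 1.99% of all genes were. Of 11 tested genes listed as lung clock outputs 4 were higher and 0 lower, against 1.99% and 2.63% of all genes. They were the neutrophil chemokine gene Cxcl5 (0.96, adjusted p = 0.00936), the cell cycle inhibitor gene Cdkn1a (0.75, adjusted p = 0.00783), the sodium channel subunit gene Scnn1a (0.24, adjusted p = 8.3e-05) and the nuclear receptor gene Ppara (0.30, adjusted p = 0.00849). Cxcl5 was low in these lungs, with medians of 0.425 CPM early and 0.715 late. Its call was lost in 1 of 64 alternative fits. In a list of 14 hypoxia-responsive genes 2 were higher, Adm (0.56) and Hk2 (0.31), against the same 1.99%.

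Heat shock genes had the highest fold changes outside the clock among called genes with a mean of at least 1 CPM. That ranking left out genes with predicted-model names (Gm and digits, or ending in Rik). Hspa1a and Hspa1b, near-identical genes for inducible HSP70 between which reads could be split, were higher by 1.32 (SE 0.30, adjusted p = 0.00561) and 1.43 (SE 0.34, adjusted p = 0.00828). Each call was lost in 1 of 64 alternative fits, that of places 7-8 against 1-2. With all doses pooled, Hspa1a medians were 12.02, 20.94 and 11.18 CPM at places 1, 2 and 3. They were 15.83, 14.91 and 52.35 CPM at places 6, 7 and 8, and Hspa1b was likewise highest at place 8 (63.3 CPM). In M libraries Hspa1a ran from 5.04 to 29.7 CPM (median 12.4) early and from 7.25 to 236 (median 36.7) late. In F libraries it ran from 9.02 to 25.6 CPM (median 11.1) and from 8.81 to 52.3 (median 14.3). The fold changes were 2.35 in M and 0.22 in F, and the difference did not pass (-2.14, SE 0.51, adjusted p = 0.624). The co-chaperone genes Dnajb1 (0.42) and Dnaja1 (0.33) also passed, the first lost in 2 and the second in 24 of 64 alternative fits. Of the 16 tested genes of the heat shock list 4 were thus higher and 0 lower, where 1.99% of all genes were higher, with a median of 0.17.

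Genes of B lymphocytes were lower at places 6-8. Of 10 tested, 8 passed as lower (2.63% over all genes), all 10 were negative, and their median fold change was -0.68. Fcmr, the receptor for IgM, ran from 1.77 to 12.96 CPM (median 7.35) early and from 1.47 to 11.4 (median 4.15) late (-0.88, SE 0.17, adjusted p = 0.0011), and 21 of 22 late libraries lay below the early median. Fcer2a (-0.86, adjusted p = 0.0012) and the B cell receptor gene Cd79b (-0.60, adjusted p = 0.00277) passed as well. Cxcr5, which guides B cells to follicles and stood outside the list, was lower by -0.78 (adjusted p = 0.00419). The sum of the 10 genes ran from 27.5 to 158.8 CPM (median 74.5) at places 1-3 and from 24.9 to 94.6 (median 54.5) at places 6-8, so the ranges overlapped. In bulk tissue fewer cells of a type and less RNA per cell cannot be told apart.

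Of 10 genes of T and NK cells 2 were lower, Cd3g (-0.37) and Nkg7 (-0.46), with a median of -0.36 and all 10 negative, where 2.63% of all genes were lower. Both calls were lost in 29 of 64 alternative fits. Of 18 interferon-stimulated genes 7 were lower (2.63% over all genes) and all 18 negative, with a median of -0.24. Irf7, a factor that amplifies interferon production, went from a median of 16.9 to 13.9 CPM (-0.33, SE 0.07, adjusted p = 0.00157), and Oasl2 (-0.24), Ifit1 (-0.25) and Ifit2 (-0.18) passed too, lost in 1, 5 and 9 of 64 alternative fits. Of 8 tested neutrophil genes 0 passed in edgeR or DESeq2 and 0 had an unadjusted p under 0.05, with a median of -0.37. Without the 5 libraries that stood apart, 8 B cell, 4 T and NK cell, 9 interferon and 7 neutrophil genes were lower. Alveolar, club, ciliated and endothelial cell lists had medians between -0.07 and 0.01, and 1 of their genes passed, the alveolar type 2 gene Etv5 (-0.16), lost in 11 of 64 alternative fits.

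**Figure D4:**
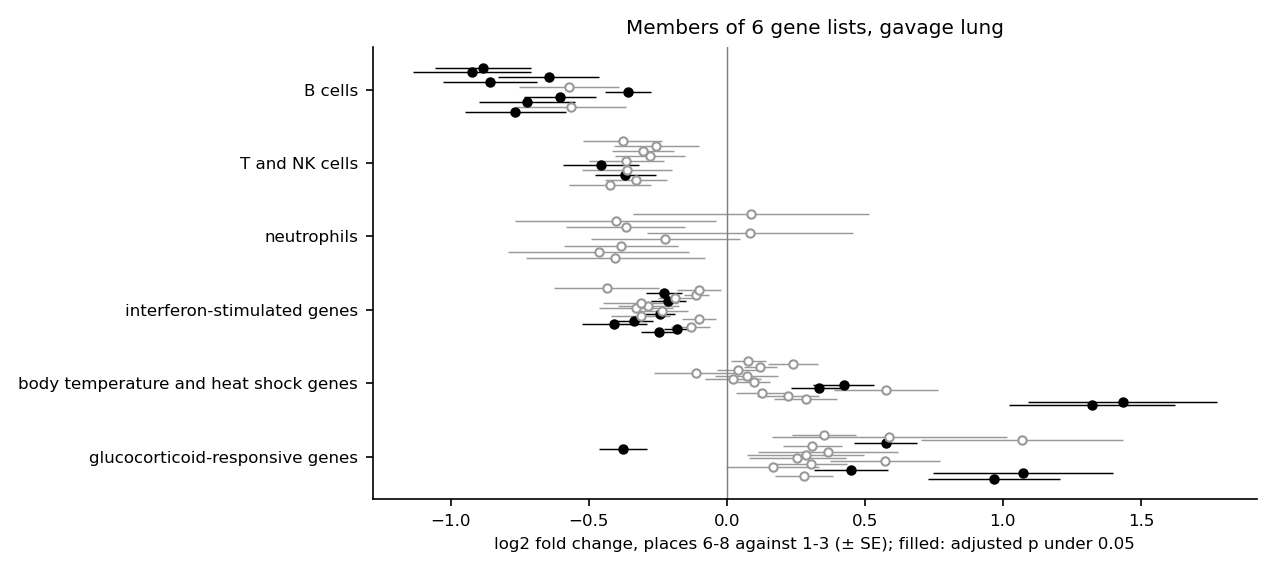
Log2 fold change ± SE between places 6-8 and 1-3 for each tested member of 6 gene lists, with filled points at an adjusted p under 0.05. B cell, T and NK cell and interferon-stimulated genes lie below 0, and 15 of 16 genes in each of the glucocorticoid and heat shock lists lie above 0.

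The most certain falls outside these lists, among called genes with a mean of at least 1 CPM and no predicted-model name, were in Cdc25b and Elovl1. Cdc25b, a phosphatase that drives entry into mitosis, ran from 24.02 to 38.1 CPM (median 32.1) early and from 17.7 to 30.1 (median 24.8) late (-0.41, SE 0.05, adjusted p = 1.18e-08). Elovl1, which lengthens very long fatty acids, went from a median of 363 to 265 CPM (-0.49, SE 0.06, adjusted p = 2.45e-08). All 22 late libraries lay below the early median for both. Fbp2, a gluconeogenic phosphatase, fell from a median of 1.36 to 0.645 CPM (-1.06, SE 0.15, adjusted p = 4.44e-06). Outside the clock, its fold change was the lowest among called genes with a mean of at least 1 CPM and no predicted-model name. The cyclin gene Ccnd1 was also lower (-0.33, adjusted p = 0.000162), the 1 call among 18 cell cycle genes, of which 5 had a positive sign. Lists for the unfolded protein response, lipid synthesis, PPAR-alpha targets, ribosomal proteins and matrix held 0 calls in edgeR, with medians between -0.07 and 0.02. Their members below 0.05 before adjustment numbered 1, 2, 3, 0 and 1, and the single DESeq2 call was in the first list.

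In liver of the same experiment, 1282 of 15762 genes (8.13%) passed between places 6-8 and 1-3, among them 13 of 28 clock genes. Arntl rose from a median of 2.95 to 16.03 CPM (1.75, adjusted p = 3.82e-08), Dbp fell from 88 to 14.4 CPM (-2.13) and Nr1d1 from 47.01 to 7.49 CPM (-2.33). In 1 fit of both tissues, without pairing by number, 217 genes (1.38%) differed in their place effect. Tef was the 1 clock gene among them, with no call in lung and -0.41 in liver (lung minus liver 0.40, adjusted p = 0.0241). With the number as a replicate block over the 49 numbers found in both tissues, 20 genes (0.126%) differed. Of the 704 lung and 1248 liver calls among genes tested in both, 18.9% of the first and 10.7% of the second were shared, 120 genes in the same direction and 13 in the opposite. The 4 genes with the smallest p of the difference, in the fit without pairing, were Ptgfr (-2.81), Adra2a (-5.03), Dvl2 (-0.49) and Prkca (0.66). For Ptgfr and Adra2a the liver medians at places 6-8 were 0.164 and 0 CPM and the highest values 20.1 and 36.3.

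The feed experiment gave another pattern under the same rule. In lung, 2254 of 15806 genes (14.3%) passed at day 5 and 2157 of 15801 (13.7%) at day 28, with 18 of 28 clock genes at each day. Arntl was lower at places 6-8, from a median of 17.4 to 3.45 CPM at day 5 (-2.44, adjusted p = 9.5e-21) and from 15.2 to 3.18 at day 28 (-2.45, adjusted p = 8.26e-20). Dbp was higher, from 61.9 to 192.5 CPM at day 5 (1.58) and from 60.7 to 178 at day 28 (1.57). Both directions were the reverse of those in the gavage lungs. For 48 of the 60 lungs at day 28 the title and the other labels gave a different dose or suffix. Both divide these lungs into the same 10 sets, so the term for groups is the same under either, and titles were used.

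Tests of the difference passed for 2123 genes (13.4%) between gavage lung and day 5 and for 1069 (6.77%) between gavage lung and day 28, with 15 clock genes in each. Arntl differed by 3.51 (SE 0.24, adjusted p = 6.82e-22) from day 5 and by 3.53 (SE 0.25, adjusted p = 5.74e-21) from day 28, and Dbp by -3.03 and -3.02. Npas2, Nfil3 and Clock were likewise higher late in gavage and lower late in feed lungs, and Bhlhe41, Ciart and Nr1d2 lower late in gavage and higher late in feed lungs. Nr1d1, with a fold change of -1.81 in gavage lung, had 0.20 at day 5 and 0.05 at day 28, where its late medians were 407 and 358 CPM against 53.4 in gavage lung, on scales set separately in each table.

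Some clock genes, Cry1 and Per2 among them, went the same way in both experiments. Cry1 was higher at places 6-8 by 0.66 in gavage lung, 0.87 at day 5 and 1.03 at day 28. It did not differ between gavage and feed past the threshold, with differences of -0.21 (adjusted p = 0.161) from day 5 and -0.37 (adjusted p = 0.0513) from day 28. Per2 was higher in all 3 lung tables, by 0.45, 1.41 and 1.54, and less so in gavage lung (difference from day 5 -0.96, adjusted p = 3.22e-06). Per1, Per3, Tef and Hlf, which did not pass in gavage lung, were higher by 1.02 to 1.42 at both feed days.

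**Figure D5:**
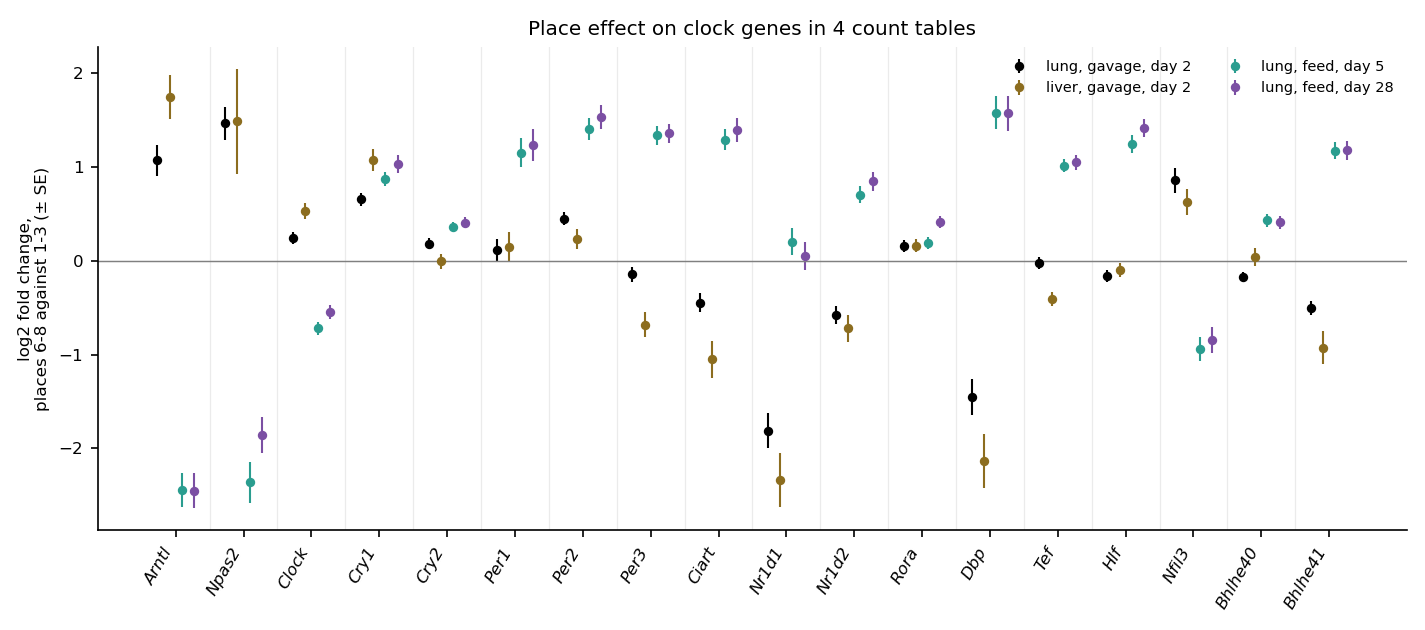
Log2 fold change ± SE between places 6-8 and 1-3 for 18 clock genes in gavage lung (black), gavage liver (brown), and lung after 5 (green) or 28 days (purple) of feeding. Arntl, Npas2, Nfil3, Dbp and Bhlhe41 lie on opposite sides of 0 in gavage and feed lungs, with Arntl at 1.07, -2.44 and -2.45, whereas Cry1 and Per2 lie above 0 in all 4 tables.

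Over all genes, 225 passed in both gavage lung and lung at day 5, 32% and 10.3% of the lists, with 83 in the same direction and the rest in the opposite. With day 28, 218 were shared, 31% and 10.2%, with 79 in the opposite direction and the rest in the same. Tsc22d3, Hif3a, Mettl21e and Fam107a were higher late in all 3 lung tables, Tsc22d3 by 0.58, 0.53 and 0.78. Adm, Cxcl5 and Cdkn1a were higher late in gavage lung and lower late in both feed tables, with Cdkn1a at 0.75, -0.78 and -0.79. The B cell list had a median of -0.68 in gavage lung, 0.33 at day 5 and -0.28 at day 28, and Fcmr differed from day 5 by -1.32 (adjusted p = 6.62e-06) and from day 28 by -0.70 (adjusted p = 0.0829).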

How the data were processed

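RNA of mouse lung and liver was sequenced, and the values used are gene counts as deposited. Per the submitters' processing notes, Trimmomatic, Bowtie2, SAMtools and HTSeq were used with build mm10. No source used here gives their versions, the annotation or the strand setting. The authors deposited raw counts for 24421 genes per table, and 1 unnamed column was not used.

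Counts were tested with edgeR 4.0.16 (limma 3.58.1, R 4.3.3): low counts were removed by filterByExpr on dose and suffix groups, TMM scaling was applied, and a robust quasi-likelihood model held 10 group means plus terms for places 4-5 and 6-8. P-values were adjusted by Benjamini-Hochberg, with a threshold of 0.05, and SE is the fold change divided by the root of F. M and F, vehicle, and dose strata had place terms of their own, and the other tables were fitted jointly with gavage lung. On simulated data with 200 changed genes among 15240, 97% of 1.5-fold changes were recovered, and 7.48% of 214 calls were false. DESeq2 1.42.0, other scalings and filters, other place classes and libraries or groups left out were alternatives.

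The libraries compared and the gene lists were chosen with earlier results of these data known. Named genes were the clock lists, the 10 highest and 10 lowest fold changes and the 5 smallest p-values in each direction among called genes with a mean of at least 1 CPM, up to 4 called members per other list, the 4 smallest p-values of each difference test, and every call where 5 or fewer were made. The rankings by fold change and by p-value among called genes left out predicted-model names (Gm and digits, or ending in Rik). The full call list in vehicle lungs was added after its values were seen. Values of some genes are not reported here.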

Additional observations from a re-analysis of the deposited data

Results flagged for a closer look

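Of 40 group values tested for a single library far from the other 5 of its group, 7 were marked. The test's rate of about 1 in 20 holds for like libraries, whereas these groups mix places, so 7 cannot be set against it. Total counts stood apart in the F group at 50 mg/kg-d (13216325), the F group at 200 (7253910) and the M group at 300 (13823484). Number 43 of the F group at 100 mg/kg-d held 172.08 CPM of Dbp and 250.91 CPM of Nr1d1. Arntl was at 36.602 CPM in number 64 (200 mg/kg-d, F) and at 36.384 in number 72 (300 mg/kg-d, M).

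Place effects that differed between gavage lung and gavage liver (lung minus liver, log2) were 0.40 for Tef, -2.81 for Ptgfr, -5.03 for Adra2a, -0.49 for Dvl2 and 0.66 for Prkca. Between the higher doses and the rest they were 0.64 for Mat2a, 1.27 for Dnm3os and -0.41 for Pid1.

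Between gavage lung and lung at day 5 of feeding, the activators differed by 3.51 (Arntl), 0.96 (Clock) and 3.82 (Npas2), and Nfil3 by 1.79. The differences were -1.05 for Per1, -0.96 for Per2, -1.48 for Per3, -1.74 for Ciart, -2.02 for Nr1d1 and -1.28 for Nr1d2. They were -3.03 for Dbp, -1.04 for Tef, -1.40 for Hlf, -0.61 for Bhlhe40 and -1.68 for Bhlhe41. Dtx4, outside the clock, differed by 0.99.

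Against day 28 the activators differed by 3.53 (Arntl), 0.79 (Clock) and 3.33 (Npas2), and Nfil3 by 1.71. The differences were -1.12 for Per1, -1.08 for Per2, -1.50 for Per3, -1.84 for Ciart, -1.86 for Nr1d1 and -1.42 for Nr1d2. They were -3.02 for Dbp, -1.07 for Tef, -1.57 for Hlf, -0.58 for Bhlhe40 and -1.68 for Bhlhe41, and 0.97 for Dtx4.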

How the results depend on the processing

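Of 59 called genes named here, 29 kept their call in all 64 alternative fits, and none of them reversed in these fits. Counts of calls are given here as a share of the genes tested. The 4.62% called between places 6-8 and 1-3 became 1.95% for places 7-8 against 1-2, and 2.56%, 2.41%, 2.91% and 9.69% without the 100 mg/kg-d F, 100 M, 50 M and 300 M groups. Leaving out single libraries gave 3.46% (without number 43) to 7.29% (without number 66). DESeq2 called 0.978% in M, 1.91% in F, 0.144% in vehicle, 0.348% between doses and 0.0262% for the middle places. Without the low-count filter the shares were 0.403% in F and 0.0292% for the middle places. Fits of F libraries alone gave 2.02% and of vehicle libraries alone 0.348%, and single vehicle libraries left out gave 0.0196% to 0.0785%. The dose comparison in M gave 0.669% with place as a term. The cause was not tested.

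Without number 78, an alternative chosen after seeing the data, the F place share was 0.752%, the F minus M count 0 and the F dose share 6.53%.

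With the number as a replicate block over the 49 numbers found in both lung and liver, 0.126% of genes (20) differed between the tissues in place of 1.38%. The labels do not say that equal numbers mark 1 mouse. Deviations of same-numbered libraries correlated at -0.000703 to 0.462 (median 0.127), 36 of 49 over 0.1, and 42 libraries correlated best with their own number.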
